A study of Homo sapiens with 24 samples.

Results

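The 70 genes described here act in DNA repair, in the cell's response to DNA damage or at telomeres, the protected ends of chromosomes. They were taken by gene symbol from a table of 9822 genes. No expression value entered the match, but the genes were chosen with earlier results of these data known. The symbols matched were those of the FANC, XRCC, ERCC, RECQL and TERF families, several RAD, mismatch repair and PARP genes, and single genes such as BRCA1, ATM, BLM and OGG1. The match also took 4 genes not assigned to a repair pathway here (ERCC6L, ERCC6L2, RAD54L2 and XRCC6P5). It took FANCD2OS too, which is named for its place opposite FANCD2. The table holds the more abundant genes, and the lowest mean count of any of the 70 over the 24 libraries was 32.83. All 70 passed the filter on low counts.

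RNA was measured in MOLT4, an established human line of T-cell acute lymphoblastic leukaemia. Cultures were given either DMSO, the solvent, or SK-3-91, described in the labels as a degrader of many kinases, for 1, 4 or 8 h. Each of the 6 groups has 4 libraries. For the dose, no value is given in the labels. Nor do the labels state whether replicates came from independent cultures, and the p-values rest on the spread among these libraries, part or all of which may be technical.

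Cells use different pathways for different kinds of DNA damage. Homologous recombination and end joining rejoin broken chromosomes, the Fanconi anaemia pathway opens cross-links between the strands, mismatch repair corrects copying errors, and nucleotide and base excision repair remove damaged bases. Shelterin, a complex that includes the TERF1, TERF2 and TERF2IP proteins, covers the telomeres and keeps the repair machinery from treating a chromosome end as a break.

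SK-3-91 changed most of these genes by 4 h, in both directions and in nearly the same proportions as it changed the rest of the table. TERF2, ERCC4, FANCE and PALB2 lost most of their transcript, while RAD18 and TERF2IP rose several-fold. The 7 mismatch repair genes were all called lower at 8 h, as were 10 of 12 genes of homologous recombination and 48.1% of all genes, and the call for MSH3 among the 7 was lost in other fits. The Fanconi anaemia and nucleotide excision genes moved in both directions.

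Total counted reads lay between 6.863 megareads in the shallowest and 14.626 megareads in the deepest library. The SK-3-91 totals were 96.2%, 74.7% and 58.3% of the DMSO totals at 1, 4 and 8 h, each with p = 0.0286 in an exact two-sided permutation test of 4 against 4 libraries, the smallest p possible. Fold changes are therefore changes in a gene's share of the counted RNA after TMM scaling, and fewer cells and less RNA per cell cannot be told apart. The 70 genes took 0.787% ± 0.0078 (SD, n = 4) of counts in DMSO and 0.795% ± 0.0056 in SK-3-91 at 1 h. The shares were 0.779% ± 0.0025 and 0.717% ± 0.003 at 4 h, and 0.758% ± 0.0078 and 0.637% ± 0.0052 at 8 h. Of 15 T-lineage markers, 14 were in the table, with a summed level of 4967.5 to 6231.9 CPM (counts per megaread of library, after scaling) in the DMSO libraries and 5058.1 to 5962.7 in the treated ones. Of markers of other cells, CD79A (1 of 6 B-cell markers) ranged from 6.3 to 10.4 CPM in the DMSO libraries at 8 h and from 23.3 to 30.5 in the treated ones. PECAM1 (1 of 5 fibroblast and endothelial markers) ranged from 42.7 to 43.7 and from 15.7 to 20.8 CPM. Of the 15 myeloid, erythroid and epithelial markers looked up by symbol, 0 matched a gene of the table used here. The part of other cells in the changes below was not tested.

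RefSeq promoters on GRCh38.p14 were matched to 57 of the 70 genes. The 250 bases before the first listed start are printed for 5 members with an entry, taken from those with the largest decreases (ERCC4, FANCE and PALB2) and the largest increases (RAD18 and TERF2IP), to set genes that moved in opposite directions side by side. They are given 5′ to 3′ on the gene's strand. ERCC4 lies at chr16:13919904-13920153 (plus strand), FANCE at chr6:35452088-35452337 (plus), PALB2 at chr16:23641311-23641560 (minus), RAD18 at chr3:8963473-8963722 (minus) and TERF2IP at chr16:75647523-75647772 (plus). Capitals mark matches on either strand to 7 promoter motifs, which are spelled out after the sequences.
ERCC4: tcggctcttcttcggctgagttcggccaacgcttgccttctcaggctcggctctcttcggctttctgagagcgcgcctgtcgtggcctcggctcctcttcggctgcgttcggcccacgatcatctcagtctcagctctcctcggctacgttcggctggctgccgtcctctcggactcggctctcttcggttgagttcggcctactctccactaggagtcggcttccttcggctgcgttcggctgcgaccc
FANCE: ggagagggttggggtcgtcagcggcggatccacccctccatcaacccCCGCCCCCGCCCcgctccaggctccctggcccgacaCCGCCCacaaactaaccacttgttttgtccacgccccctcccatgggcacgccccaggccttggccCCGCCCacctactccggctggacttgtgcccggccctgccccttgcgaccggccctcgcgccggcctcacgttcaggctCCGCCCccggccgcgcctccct
PALB2: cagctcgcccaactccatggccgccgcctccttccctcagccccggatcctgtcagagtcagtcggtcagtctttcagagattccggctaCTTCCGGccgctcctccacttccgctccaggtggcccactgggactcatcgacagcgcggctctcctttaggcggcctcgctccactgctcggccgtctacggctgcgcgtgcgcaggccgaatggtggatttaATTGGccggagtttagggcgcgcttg
RAD18: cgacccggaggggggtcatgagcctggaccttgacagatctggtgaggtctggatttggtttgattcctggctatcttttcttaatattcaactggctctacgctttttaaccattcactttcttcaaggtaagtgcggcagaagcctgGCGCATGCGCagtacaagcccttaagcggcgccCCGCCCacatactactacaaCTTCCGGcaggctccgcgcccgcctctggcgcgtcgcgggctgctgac
TERF2IP: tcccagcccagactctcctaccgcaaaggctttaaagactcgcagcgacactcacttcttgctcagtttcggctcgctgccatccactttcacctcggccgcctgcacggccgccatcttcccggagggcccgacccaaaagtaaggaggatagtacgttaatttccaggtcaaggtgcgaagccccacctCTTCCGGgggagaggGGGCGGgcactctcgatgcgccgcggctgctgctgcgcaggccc

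ERCC4 held none of these motifs in this window. FANCE held 5 GC boxes, all on the opposite strand, of which those 203 and 197 bases before the start are printed as 1 run. PALB2 held an ETS motif 160 bases and a CCAAT motif 26 bases before the start. RAD18 held the NRF1 motif at 101 bases, a GC box at 68 and an ETS motif at 48. TERF2IP held an ETS motif at 59 bases and a GC box at 44. The GC box was searched as GGGCGG and was found in 68.4% of the 57 member promoters and in 68.9% of the 8103 promoters matched to the count table. The ETS motif, searched as CCGGAAG, was found in 29.8% and 17.6%. The letters CCAAT were found in 42.1% and 35.8% of them. The CHR element of cell-cycle genes, searched as TTTGAA, was found in 10.5% and 8.15%. The NRF1 motif, searched as GCGCA followed directly by its reverse complement, was found in 7.02% and 2.23%. The CREB motif, searched as TGACGTCA, was found in 5.26% and 3.06%. The E2F motif was searched in its forms TTTCGCGC and, with other bases at its centre, TTTGGCGC, and was found in 3.51% and 1.76%. Of the 18 matched members that were at least 2-fold lower at 8 h, 22.2% held an ETS motif and 72.2% a GC box. Of the 5 that were at least 2-fold higher, 40% and 80% did. These are letter matches and not measured binding.

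Levels in DMSO, as CPM per kilobase of the deposited gene width (RPKM), spanned from XRCC5 at 217 ± 7.47 (SD, n = 12 libraries over 3 times) to MLH3 at 1.00 ± 0.0835. XRCC5 and XRCC6 encode the Ku proteins that hold broken DNA ends, and XRCC6 followed at 131 ± 7.24 RPKM. UNG, the glycosylase that removes uracil from DNA, lay at 118 ± 14.8 RPKM. TERF2 lay at 25.0 ± 2.57 RPKM, within the spread of ERCC1 (25.0 ± 1.28) and RAD51AP1 (25.1 ± 2.54). Of the telomere genes, TERF2IP was the highest per length at 65.2 ± 2.87 RPKM and TERF1 the lowest at 6.45 ± 0.406. In DMSO alone, 15 members were higher and 16 lower at 8 h than at 1 h (edgeR, adjusted p under 0.05), against 22.6% and 24.7% of all genes. This drift ran from a log2 difference of -0.35 for UNG to 0.41 for the mismatch repair gene PMS1. No member passed 2-fold, which only 0.489% of all genes did upward and 0.204% downward.

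At 1 h, 28 of 70 members (40%) had changed with an adjusted p under 0.05 in edgeR's quasi-likelihood test, against 54.3% of all genes. Of these, 15 were higher (24.9% of all genes were) and 13 lower (29.4%). The median log2 fold change of the 70 was 0.02, as against 0.01 over all genes. No member changed 2-fold, which 3.25% of all genes did downward and 0.0509% upward. With another set of scaling factors (RLE) the counts were 26 higher and 11 lower, beside 33.1% and 26.2% of all genes. The median standard error over the 70 genes was 0.054 (1 h), 0.058 (4 h) and 0.064 (8 h).

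At 4 h, 59 of 70 members (84.3%) had changed, against 87.9% of all genes. The 24 higher members (34.3%) stand beside 42% of all genes, and the 35 lower ones (50.0%) beside 45.9%. At least 2-fold changes were seen in 1 member upward (9.2% of all genes) and 13 downward (18.6%, against 18.2% of all genes). The median was -0.20 for members and -0.05 for all genes. Without scaling factors, 14 members were higher and 46 lower, beside 29.2% and 58.6% of all genes.

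At 8 h, 60 of 70 members (85.7%) had changed, against 89.4% of all genes. Of these, 22 were higher (31.4%, against 41.3% of all genes) and 38 lower (54.3%, against 48.1%). At least 2-fold increases were seen in 7 members (10%, against 16.8% of all genes), and at least 2-fold decreases in 22 (31.4%, against 23.5%). The median was -0.24 for members and -0.11 for all genes. Without scaling factors, 13 were higher and 50 lower, beside 28.3% and 62.6% of all genes, and the median of all genes moved by -0.30 at 4 h and -0.43 at 8 h. Shares this near to those of all genes are not a result about the 70 genes, and the results below are those of single genes and pathways.

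**Figure D1:**
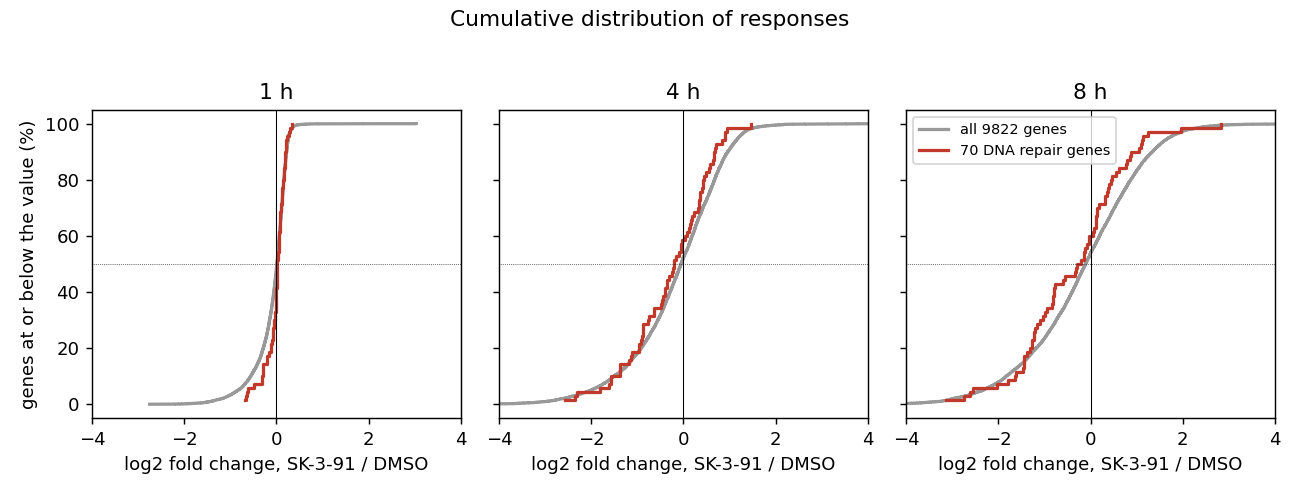
Cumulative distribution of the log2 fold change, SK-3-91 over DMSO (x axis), at 1, 4 and 8 h. The y axis is the percentage of genes at or below each value, in grey for all 9822 genes and in red for the 70 DNA repair genes. The red curve lies close to the grey one at each time, with medians of -0.24 and -0.11 at 8 h.

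The telomere genes moved in opposite directions. TERF2 binds the telomere repeats and shields chromosome ends from break signalling and end joining. At 1 h it lay at 78.47, 72.91, 73.13 and 77.96 CPM in the 4 DMSO libraries and at 76.34, 78.57, 76.95 and 72.47 CPM in the treated ones. The groups overlapped, and the log2 fold change was 0.01 ± 0.047 (SE), with an adjusted p of 0.888 in edgeR. At 4 h it lay at 89.49, 95.98, 94.61 and 99.33 CPM in DMSO and at 20.27, 16.18, 19.8 and 17.59 CPM in SK-3-91. No treated library reached the lowest DMSO library, and TERF2 fell by 2.36 ± 0.06 on the log2 scale (adjusted p = 7.39e-31). At 8 h it lay at 90.73, 84.55, 90.4 and 87.94 CPM in DMSO and at 15.03, 12.69, 15.49 and 14.5 CPM in SK-3-91, a log2 fold change of -2.62 ± 0.07 (adjusted p = 7.27e-31 in edgeR). Its response thus changed by -2.37 ± 0.078 from 1 to 4 h and by -0.26 ± 0.102 from 4 to 8 h, where the adjusted p of the change was 0.0234. In DMSO alone TERF2 was 0.23 higher on the log2 scale at 8 h than at 1 h.

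TERF2IP encodes the protein that reaches telomeres by binding TERF2. It lay at 145.5, 157.8, 154.1 and 143.6 CPM in DMSO and at 266.2, 289.2, 289.3 and 279.8 CPM in SK-3-91 at 4 h. All 4 treated libraries lay above all 4 DMSO libraries, with a log2 fold change of 0.90 ± 0.042. At 8 h it lay at 140.8, 140.5, 135.5 and 146.3 CPM in DMSO and at 550.9, 522.4, 592.6 and 548.6 CPM in SK-3-91, a log2 fold change of 1.97 ± 0.042 (adjusted p = 5.37e-34 in edgeR). At 1 h its log2 fold change was 0.02 ± 0.042 (adjusted p = 0.699). TERF1, the other telomere repeat-binding protein, averaged 21.68 CPM in DMSO and 46.73 CPM in SK-3-91 at 8 h, a log2 fold change of 1.11 ± 0.069 (adjusted p = 2.39e-18). Its increase of 0.40 at 4 h was 0.10 without scaling factors (adjusted p = 0.179).

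Of 6 other telomere genes in the list of repair genes not matched by symbol, 1 was higher and 4 were lower at 4 h. At 8 h, 1 was higher and 5 were lower. Over all genes, 42% were higher and 45.9% lower at 4 h, and 41.3% and 48.1% at 8 h. The shelterin genes among the 6, named after their values were seen, were TINF2 (log2 fold change -1.49 at 8 h), ACD (-0.65) and POT1 (-0.48). All 3 were lower. Of the 6 shelterin genes, 4 were thus lower and TERF1 and TERF2IP were higher at 8 h.

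Over the 24 libraries, the genes whose log2 CPM followed that of TERF2 most closely were GTF3C2 and TIMM21 (Pearson r 0.9948 each), PLEKHO1 and EDEM3 (0.9942 each) and TBC1D10B (0.9941). The points share libraries and treatment, and within the 12 DMSO libraries the r values were 0.584 to 0.838. All 5 genes were lower at 8 h, with log2 fold changes of -1.48 (GTF3C2) to -2.67 (PLEKHO1).

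**Figure D2:**
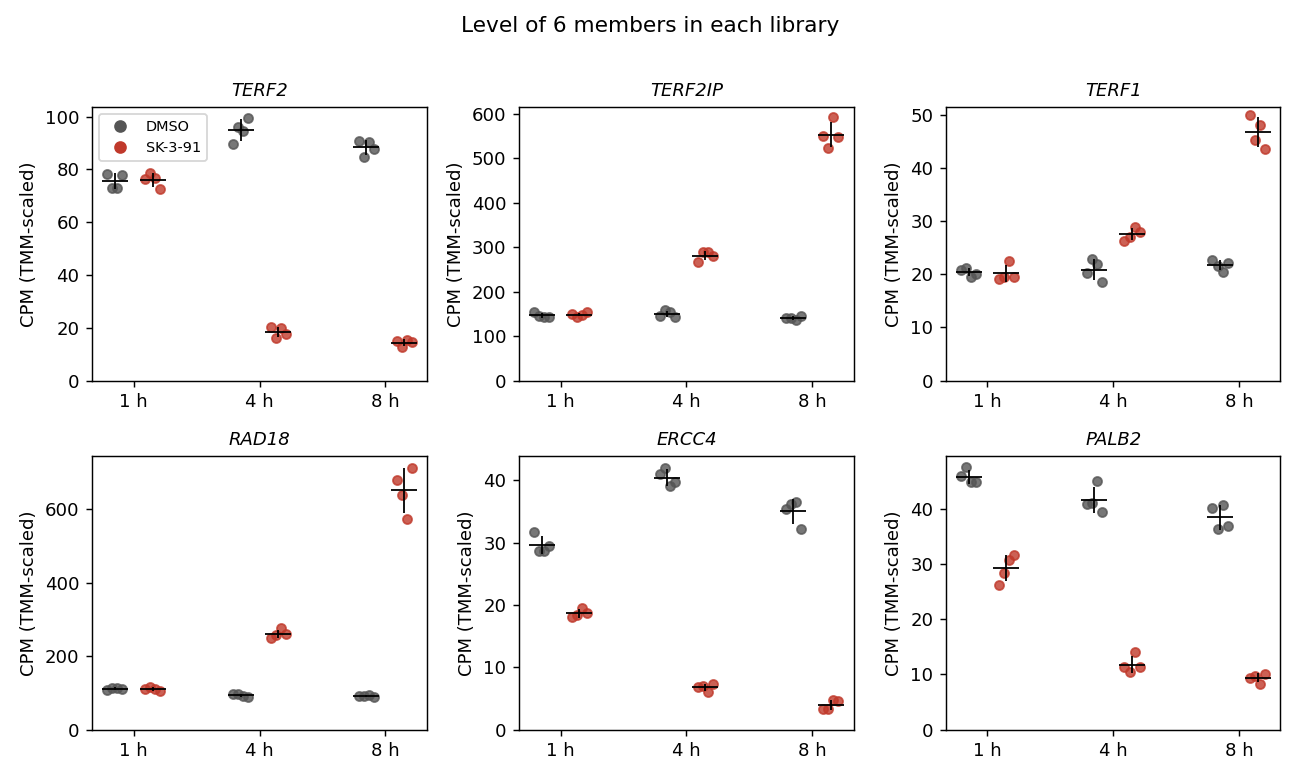
Level in each library, in TMM-scaled CPM (y axis), against hours of treatment (x axis) for the genes named above each panel. Grey points are DMSO and red points SK-3-91 libraries, 4 of each per time, with black bars for the mean and 1 SD on each side. The treated TERF2 libraries at 8 h lie between 12.69 and 15.49 CPM, below all DMSO libraries, and those of RAD18 between 573.6 and 714 CPM, above all DMSO libraries.

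RAD18, the ubiquitin ligase that marks the sliding clamp PCNA at stalled replication forks, had the largest increase of the 70 genes at 4 and at 8 h. At 1 h its log2 fold change was -0.01 ± 0.05 (adjusted p = 0.886 in edgeR). At 4 h it lay at 98, 96.8, 91.86 and 88.81 CPM in DMSO and at 250.8, 257.1, 275.9 and 260 CPM in SK-3-91, a log2 fold change of 1.48 ± 0.05 (adjusted p = 6.35e-27 in edgeR). At 8 h it lay at 91.76, 92.86, 93.87 and 88.2 CPM in DMSO and at 680.5, 638.5, 573.6 and 714 CPM in SK-3-91. The groups did not overlap at either time. The log2 fold change at 8 h was 2.83 ± 0.05 (adjusted p = 1.82e-36), and the response grew by 1.36 ± 0.07 from 4 to 8 h (adjusted p = 1.05e-19). In DMSO alone RAD18 was 0.28 lower on the log2 scale at 8 h than at 1 h.

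Homologous recombination copies the sister chromatid to repair a break. Of its 12 members, 2 were higher and 4 lower at 1 h, and 2 higher and 9 lower at 4 h. At 8 h, 1 was higher and 10 were lower, with a median log2 fold change of -1.08. Over all genes the shares higher and lower were 24.9% and 29.4% at 1 h, 42% and 45.9% at 4 h, and 41.3% and 48.1% at 8 h.

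PALB2, the bridge between BRCA1 and BRCA2, was lower at all 3 times. It lay at 45.94, 47.61, 44.8 and 44.93 CPM in DMSO and at 26.28, 28.39, 30.83 and 31.63 CPM in SK-3-91 at 1 h, a log2 fold change of -0.65 ± 0.061 (adjusted p = 8.46e-12 in edgeR). At 4 h it lay at 40.87, 41.06, 45.09 and 39.53 CPM in DMSO and at 11.29, 10.47, 14.07 and 11.35 CPM in SK-3-91, a log2 fold change of -1.82 ± 0.078. Its groups were apart at both times, and at 8 h the fold change was -2.02 ± 0.092. The change between 4 and 8 h did not pass the test (-0.20 ± 0.132, adjusted p = 0.175). XRCC2, a mediator of strand exchange, lay at 39.04, 38.31, 41.68 and 45.52 CPM in DMSO and at 24.2, 27.71, 28.65 and 25.99 CPM in SK-3-91 at 1 h. It was lower in every treated library, with log2 fold changes of -0.63 ± 0.065, -1.15 ± 0.077 and -1.17 ± 0.084 at the 3 times.

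BRCA2, which readies broken ends for strand exchange, was lower at all 3 times (-0.29, -0.50 and -0.61 at 1, 4 and 8 h). BRCA1 was lower at 4 h (-0.88) and 8 h (-0.99), with -0.05 ± 0.044 at 1 h. RAD51C, of the same family as XRCC2, was lower at 4 and 8 h (-1.13 and -1.80). RAD52, which anneals single strands, was at -1.38 and -1.22, and RAD54L, a motor protein of strand exchange, at -0.78 and -1.27. RAD54L overlaps LRRC41 on the opposite strand over 25.1% of its exon bases and is uncertain. XRCC3 fell by 0.37 at 4 h and 0.29 at 8 h, but is uncertain, with 76.7% of its exon bases opposite KLC1. RAD51AP1, an accessory protein of strand exchange, was the 1 member higher at 8 h (0.18 ± 0.061). With upper-quartile factors it was at 0.01 (adjusted p = 0.873 in edgeR), and without scaling factors at -0.25. BRIP1, the helicase that binds BRCA1, was at 0.12, -0.09 (no call) and -0.13. A call at 4 h appeared with upper-quartile factors (-0.15, adjusted p = 0.00342 in edgeR), without factors (-0.39) and with a higher count minimum (-0.10), and its call at 8 h was lost with RLE factors (-0.04). RAD51B was higher at 4 h (0.45 ± 0.089) and at -0.04 ± 0.097 at 8 h.

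The Fanconi anaemia members split within the pathway. At 8 h, 3 of 10 were higher, 3 lower and 4 did not pass the test, with a median of 0.02. Both the 10 and the 4 include FANCD2OS, taken in by its symbol. Over all genes, 41.3% were higher and 48.1% lower. FANCE links the core complex, which holds the ubiquitin ligase, to its substrate FANCD2. It lay at 24.91, 22.8, 23.64 and 24.48 CPM in DMSO and at 4.076, 4.356, 5.107 and 5.727 CPM in SK-3-91 at 4 h, a log2 fold change of -2.31 ± 0.112 (adjusted p = 8.91e-22 in edgeR). At 8 h it lay at 26.93, 23.1, 25.92 and 25.9 CPM in DMSO and at 5.199, 4.138, 2.029 and 5.364 CPM in SK-3-91, a log2 fold change of -2.56 ± 0.128. The treated libraries were far below the DMSO libraries at both times. FANCE was at 0.16 ± 0.079 at 1 h (adjusted p = 0.076), which passed the test with RLE factors (0.20, adjusted p = 0.0255 in edgeR).

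FANCM, the motor protein that brings the core complex to DNA, had the largest decrease of the 70 genes at 1 h. It lay at 21.65, 20.42, 20.32 and 22.04 CPM in DMSO and at 11.75, 15.12, 13.44 and 12.17 CPM in SK-3-91, with no overlap. The response went from -0.69 ± 0.074 at 1 h to -1.61 ± 0.083 at 4 h, then returned to -0.55 ± 0.082 at 8 h. The reversal of the trend between 4 and 8 h was itself 1.06 ± 0.121 (adjusted p = 5.51e-10 in edgeR). FANCG, a core complex member, was lower at 8 h (-0.81 ± 0.054) and did not pass the test at 1 or 4 h. With upper-quartile factors it was called lower at 4 h (-0.11, adjusted p = 0.0327 in edgeR), as it was without factors (-0.35).

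FANCA, another core member, was higher by 0.71 ± 0.057 at 4 h and 1.06 ± 0.059 at 8 h. It is uncertain, with 23.6% of its exon bases opposite ZNF276. FANCD2, the substrate of the core ligase, was higher at all 3 times (0.18, 0.69 and 0.40), and without scaling factors its value at 8 h was -0.03. Its partner FANCI was higher by 0.41 at 4 h and 0.11 at 8 h, where upper-quartile factors gave -0.06 and no scaling factors gave -0.32. FANCB was lower at 4 h (-0.65 ± 0.115) and at -0.08 ± 0.116 at 8 h, and FANCD2OS passed the test at no time.

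All 7 mismatch repair genes were lower at 8 h (48.1% of all genes were), with a median log2 fold change of -1.23. Before that, 3 were higher and 2 lower at 1 h, beside 24.9% and 29.4% of all genes. At 4 h 5 were lower, beside 45.9% of all genes. MSH6, which detects mismatches, was lower from the start, with log2 fold changes of -0.29, -1.58 and -1.39. 

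PMS1 passed from 0.20 at 1 h to -0.87 and -1.23. MLH3 had -0.31, -0.97 and -0.78, and PMS2, which shares 23% of its 50-base words with its pseudogenes and is uncertain, had -0.20 (no call), -0.90 and -0.94. MSH3, which detects loops, ended at -0.15 ± 0.064. MSH3 was the 1 gene of this group whose call at 8 h did not hold in other fits, with -0.05 and an adjusted p of 0.422 with RLE factors.

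Of the 9 nucleotide excision members, 2 were higher and 1 lower at 1 h, 3 and 3 at 4 h, and 2 and 3 at 8 h. Over all genes these shares were 24.9% and 29.4% at 1 h, 42% and 45.9% at 4 h, and 41.3% and 48.1% at 8 h. ERCC4 is the nuclease that cuts on one side of the lesion and also acts on cross-links. It had the largest decrease of the 70 genes at 4 and 8 h. It is uncertain, with 25.7% of its exon bases opposite a clone-named gene. At 1 h it lay at 31.7, 28.68, 28.72 and 29.52 CPM in DMSO and at 18.05, 18.32, 19.58 and 18.63 CPM in SK-3-91, a log2 fold change of -0.67 ± 0.063 (adjusted p = 7.84e-12 in edgeR). At 4 h it lay at 40.99, 41.94, 39.02 and 39.78 CPM in DMSO and at 6.897, 7.052, 6.045 and 7.261 CPM in SK-3-91, a log2 fold change of -2.57 ± 0.081. The groups were apart at both times and stayed so at 8 h. There it lay at 35.33, 36.2, 36.53 and 32.15 CPM in DMSO and at 3.372, 3.311, 4.796 and 4.639 CPM in SK-3-91, a log2 fold change of -3.14 ± 0.104 (adjusted p = 1.08e-27). Its partner in the same nuclease, ERCC1, did not pass the test with TMM scaling, with 0.10, 0.08 and -0.03, and its call turned on the scaling. With RLE factors it was called higher at 1 h (0.14, adjusted p = 0.00721 in edgeR) and 4 h (0.13), without factors lower at 4 h (-0.22) and 8 h (-0.46), and with upper-quartile factors higher at 1 h (0.11) and lower at 8 h (-0.19). ERCC1 is uncertain, with 28.6% of its exon bases opposite CD3EAP.

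XPC, the damage sensor, was lower at 4 h (-1.38 ± 0.073) and 8 h (-1.64 ± 0.081). It is uncertain, with 30.4% of its exon bases opposite other genes. Its partner RAD23B moved the other way and rose by 0.49 ± 0.035 and 0.76 ± 0.035. ERCC3, a helicase of the transcription factor TFIIH, was lower (-0.47 and -0.82). The other TFIIH helicase, ERCC2, was at 0.22 ± 0.065 at 4 h, where no scaling factors gave -0.08, and did not pass the test at 8 h, where RLE factors gave a call at 0.24 (adjusted p = 0.00212 in edgeR). ERCC8 and XPA did not pass the test with TMM scaling at any time. With RLE factors ERCC8 was called higher at all 3 times (0.19, 0.20 and 0.20) and XPA at 8 h (0.16), while without factors XPA was called lower at 4 h (-0.34) and 8 h (-0.37) and ERCC8 at 8 h (-0.32). ERCC8 shares 26.1% of its 50-base words with other genes and is uncertain.

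Of the 8 members of base excision and strand break repair, 3 were higher and none lower at 1 h, beside 24.9% and 29.4% of all genes. At 8 h 2 were higher and 6 lower, beside 41.3% and 48.1% of all genes, with a median of -1.26. OGG1, the glycosylase for oxidised guanine, had the largest increase of the 70 genes at 1 h. It lies opposite other genes over 29% of its exon bases and is uncertain. It lay at 11.02, 11.19, 12.05 and 13.39 CPM in DMSO and at 18.12, 13.82, 13.37 and 14.58 CPM in SK-3-91. The third treated library fell just under the highest DMSO library, and the log2 fold change was 0.33 ± 0.086 (adjusted p = 0.00148 in edgeR). At 8 h OGG1 was lower (-1.21 ± 0.124).

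XRCC1, the scaffold that gathers break repair enzymes, lay at 43.3, 50.21, 45.91 and 45.45 CPM in DMSO and at 55.59, 56.45, 54.57 and 55.35 CPM in SK-3-91 at 1 h. Treated libraries were all higher, by a log2 fold change of 0.26 ± 0.057. It then turned to -0.75 ± 0.064 at 4 h and -1.45 ± 0.075 at 8 h. TDP1 and TDP2, which free DNA ends from trapped topoisomerases, were lower at 4 h (-0.87 and -0.96) and 8 h (-1.44 each). UNG was slightly higher at 4 h (0.15 ± 0.04), where no scaling factors gave -0.15, and averaged 270.4 CPM in DMSO and 132.3 CPM in SK-3-91 at 8 h (-1.03 ± 0.044).

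The 3 PARP genes, which attach ADP-ribose at breaks, differed. PARP1 lay at 333.5, 313.8, 335.8 and 316.9 CPM in DMSO and at 384.2, 376.3, 366.3 and 384.5 CPM in SK-3-91 at 1 h, with a log2 fold change of 0.22 ± 0.038. At 4 h it lay at 323, 323.1, 318.8 and 319 CPM in DMSO and at 616.1, 597.3, 582.6 and 589 CPM in SK-3-91, a log2 fold change of 0.89 ± 0.038 (adjusted p = 9.54e-24 in edgeR). Its groups were apart at both times, and at 8 h it was at 0.88 ± 0.038. PARP2 fell by 1.19 at 4 h and 1.32 at 8 h. PARP3 rose by 0.39 ± 0.072 at 8 h, which was -0.04 without scaling factors.

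Among the 3 end joining members, XRCC6 rose and XRCC4 fell. XRCC6 lay at 369.4, 390.5, 408 and 392.7 CPM in DMSO and at 685.1, 696.7, 672.8 and 715.9 CPM in SK-3-91 at 4 h, apart in all libraries. Its log2 fold changes were 0.18 ± 0.041, 0.83 ± 0.042 and 0.79 ± 0.042 at the 3 times. XRCC5, its partner, was at 0.17 ± 0.034, 0.56 ± 0.034 and 0.12 ± 0.034, and at 8 h it was at -0.05 with upper-quartile factors and -0.32 without factors. XRCC4, the scaffold of the ligase, lay at 14.69, 14.89, 15.56 and 13.78 CPM in DMSO and at 15.14, 18.45, 18.01 and 17.4 CPM in SK-3-91 at 1 h. The groups overlapped by 1 treated library (0.23 ± 0.083, adjusted p = 0.0187 in edgeR), and at 8 h XRCC4 was at -1.09 ± 0.114. XRCC6P5, a pseudogene copy of XRCC6, was at 0.85 ± 0.203 at 8 h, and reads of the 2 genes may have been exchanged.

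Of the 8 genes of break sensing and checkpoint signalling, all 8 were called at 4 and at 8 h, beside 87.9% and 89.4% of all genes. None of the 8 passed 2-fold at any time. Over all genes, 0.0509% did so upward and 3.25% downward at 1 h, 9.2% and 18.2% at 4 h, and 16.8% and 23.5% at 8 h. At 8 h, 6 were lower and 2 higher, beside 48.1% and 41.3% of all genes, with a median of -0.32. Of the MRE11 complex, which senses breaks, MRE11 was higher (0.31 at 4 h and at 8 h), while NBN was lower (-0.32 and -0.31) and RAD50 was lower (-0.37 and -0.83). RAD50 shares 77.7% of its 50-base words with a clone-named model and is uncertain, and MRE11 was at -0.13 at 8 h without scaling factors. ATM, the kinase that answers breaks, was higher by 0.65 ± 0.067 at 4 h and 0.31 ± 0.07 at 8 h. The value at 8 h was 0.14 with upper-quartile factors (adjusted p = 0.0555 in edgeR) and -0.13 without scaling factors. ATR, the kinase that answers stalled forks, was at -0.40 ± 0.064 and -0.20 ± 0.069. RAD1, of the checkpoint clamp, was lower at all 3 times (-0.30, -0.93 and -0.79), and its clamp partner RAD9A was at 0.19 at 4 h, where no scaling factors gave -0.11, and at -0.33 at 8 h. RAD17, which loads the clamp, was lower at 4 and 8 h (-0.64 and -0.78).

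The RecQ helicases unwind branched DNA. BLM was lower at all 3 times (-0.29, -1.57 and -1.61), while RECQL4, WRN and RECQL were higher at 8 h. RECQL4 lay at 167.2, 161.5, 135.4 and 171 CPM in DMSO and at 357.7, 364.6, 299 and 380.7 CPM in SK-3-91 at 8 h. No library overlapped, and the log2 fold change was 1.15 ± 0.065 (adjusted p = 1.34e-19 in edgeR). WRN was at 0.61 ± 0.058 and RECQL at 0.55 ± 0.045. RECQL is uncertain, with 41.5% of its exon bases opposite PYROXD1. RECQL5 was lower at 4 h (-0.23 ± 0.067) and at 0.07 ± 0.069 at 8 h.

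The 4 genes matched by symbol but not assigned to a repair pathway here were all higher at 8 h, beside 41.3% of all genes. RAD54L2, a chromatin motor tied to nuclear receptors, lay at 33.02, 31.35, 33.67 and 26.16 CPM in DMSO and at 76.58, 73.11, 70.64 and 74.37 CPM in SK-3-91. Its groups were apart, with a log2 fold change of 1.25 ± 0.066, after -0.20 ± 0.065 at 1 h. ERCC6L, a motor protein of mitotic chromosome bridges, went from -0.49 ± 0.053 and -0.39 ± 0.055 to 0.47 ± 0.053 at 8 h, which was 0.04 without scaling factors. ERCC6L2 was at 1.11 ± 0.076 at 8 h.

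**Figure D3:**
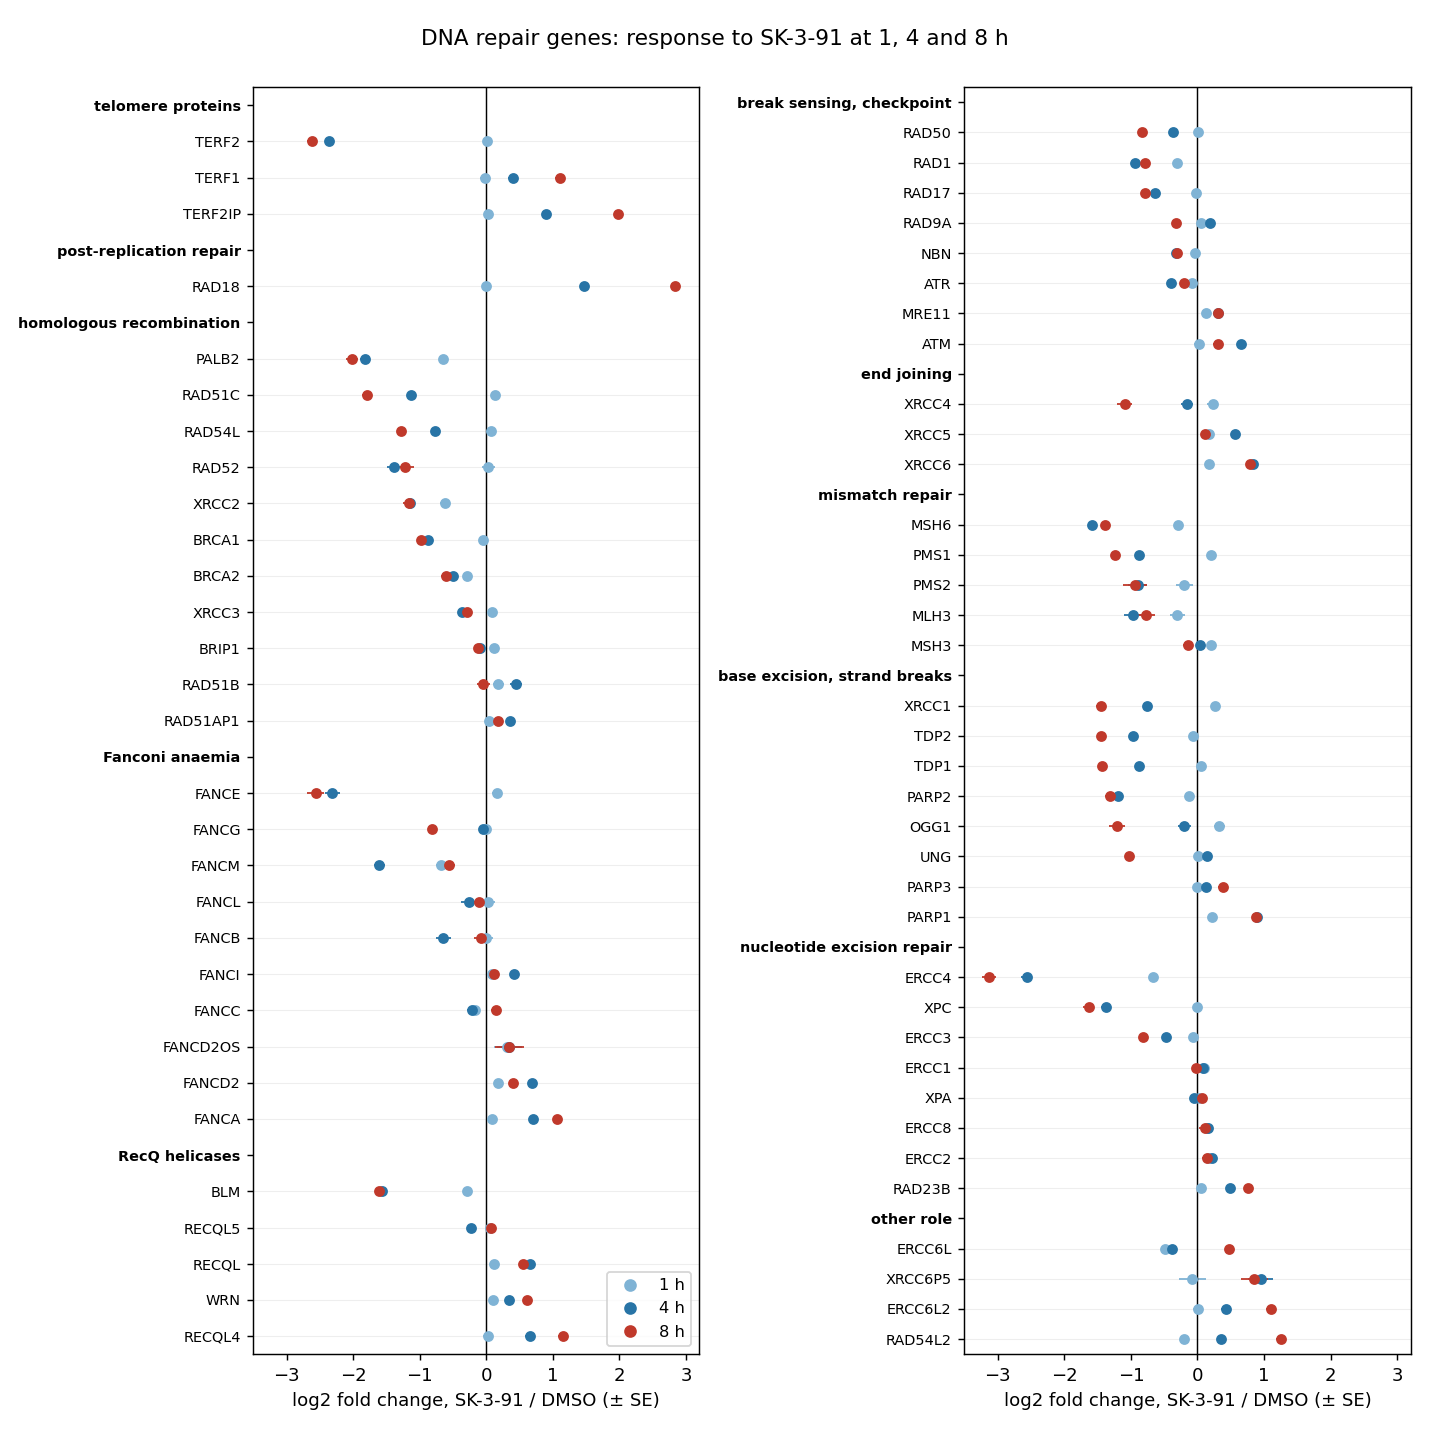
Log2 fold change (x axis) of the members reported here, grouped by role (y axis), at 1, 4 and 8 h. Points are fold changes, and lines are 1 standard error on each side. At 8 h ERCC4 lies at -3.14 and RAD18 at 2.83.

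**Figure D4:**
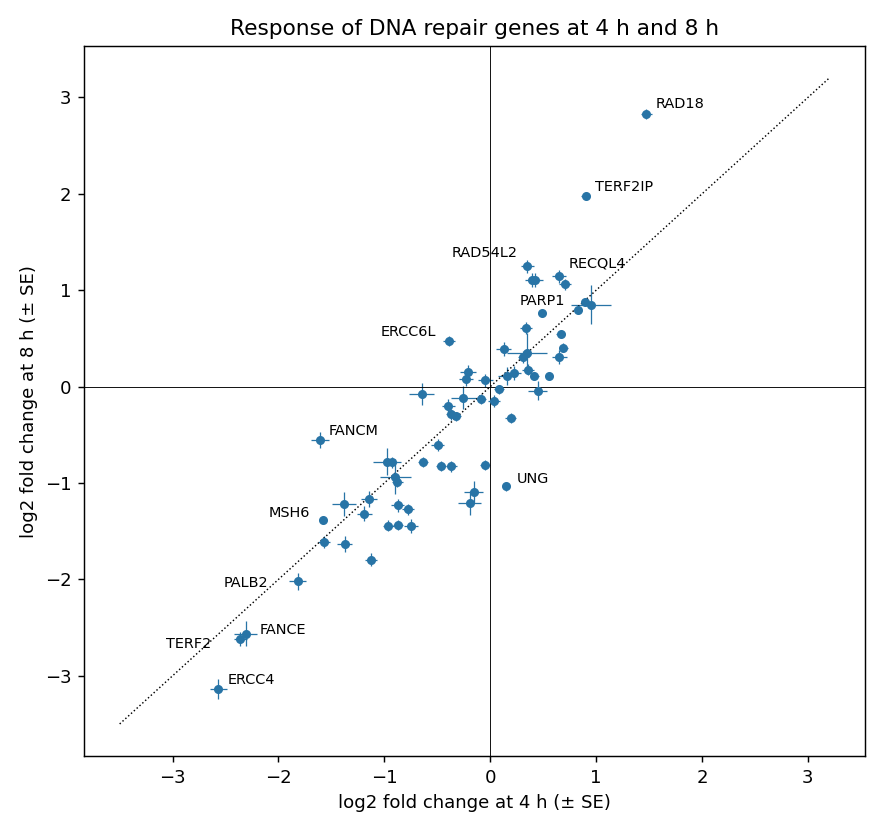
Log2 fold change at 4 h (x axis) against that at 8 h (y axis) for the members reported here, each axis with 1 standard error, and the dotted line marking equal values. RAD18 and TERF2IP lie above the line, UNG below it, and FANCM at -1.61 and -0.55.

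Across the 3 times, 10 members were called lower throughout (among them RAD1, FANCM, BRCA2, PALB2, XRCC2, MLH3, MSH6, ERCC4 and BLM), a pattern of 16.3% of all genes. Another 6 were called higher throughout (among them PARP1, XRCC5, XRCC6, FANCD2 and RECQL), a pattern of 14.7%. There were 8 members called higher at 1 h and lower at 8 h (among them OGG1, XRCC1, XRCC4, BRIP1, RAD51C, MSH3 and PMS1), against 7.9% of all genes. The opposite course was called for ERCC6L and RAD54L2, against 9.93%. UNG and RAD9A were called higher at 4 h and lower at 8 h, against 4.62%, and ERCC6L lower at 4 h and higher at 8 h, against 3.71%. At both 4 and 8 h, 30 members were lower (38.2% of all genes) and 20 higher (33.2%). ERCC1, ERCC8, XPA and FANCD2OS were called at no time with TMM scaling, and the first 3 of these were called with other factors. The change in response itself was called upward in 23 members and downward in 37 from 1 to 4 h (40.6% and 39.9% of all genes), and in 16 and 24 from 4 to 8 h (35.6% and 33%). Without scaling factors these counts were 14 and 46 from 1 to 4 h, and 11 and 38 from 4 to 8 h. The matching shares of all genes are not given here. Dropping the factors moved the median response of all genes by -0.30 at 4 h and -0.43 at 8 h. The counts without factors are therefore not a result about the members. These comparisons share libraries and are given side by side.

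Some of the smaller calls did not hold when a library was left out, often whichever of several it was. At 1 h, 9 of the 28 calls were lost on leaving out 1 library, of which 7 are described. RECQL lost its call without SK-3-91 replicate 3 (adjusted p = 0.0519 in edgeR), MLH3 without DMSO replicate 4 or SK-3-91 replicate 3 (up to 0.12), and RAD51C without DMSO replicate 4 or SK-3-91 replicate 1 (up to 0.0752). XRCC4 lost it without DMSO replicate 4, SK-3-91 replicate 2 or SK-3-91 replicate 3 (up to 0.068), and ERCC2 without DMSO replicate 1, DMSO replicate 2 or SK-3-91 replicate 2 (up to 0.101). BRIP1 lost it without DMSO replicates 1, 2 or 4 or SK-3-91 replicates 2 or 4 (up to 0.0887). FANCC, at -0.17, lost it without DMSO replicates 2, 3 or 4 or SK-3-91 replicates 1, 2 or 4 (up to 0.124).

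At 4 h FANCL, the ligase of the core complex, at -0.26, lost its call without DMSO replicates 2, 3 or 4 or SK-3-91 replicates 1 or 3 (adjusted p up to 0.14 in edgeR). At 8 h ATR (-0.10, adjusted p = 0.115) and FANCI (0.06, adjusted p = 0.175) lost theirs without SK-3-91 replicate 3, the shallowest library. BRIP1 lost its call at 8 h without SK-3-91 replicate 1 (-0.10, adjusted p = 0.0734), and MSH3 without DMSO replicates 1, 2 or 3 or SK-3-91 replicates 1 or 3 (up to 0.0999).

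Correlations of the response with the gene's length and level were weak and, at 1 h, differed in sign between measures. Across the 70 genes, Pearson's r between the log2 fold change and the log of the genomic span was 0.12, 0.03 and 0.03 at 1, 4 and 8 h, as against -0.01, 0.04 and 0.07 across 9815 genes. With the log of the deposited gene width r was -0.26, 0.00 and 0.10 across the 70 genes and -0.17, -0.05 and 0.05 across all. With the log of the level in DMSO (RPKM) r was 0.19, 0.15 and 0.01 across the 70 genes and 0.21, 0.11 and 0.04 across all. Of the 13 members spanning 100 kb or more, 6 were lower at 8 h (46.2%), and of the 13 spanning under 20 kb, 8 were (61.5%). Over all genes these shares were 40.9% and 50.9%. These are descriptions across genes, which are not independent replicates.

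Another 99 genes of DNA repair, not matched by symbol, came from a list chosen with earlier results known. At 1 h, 26 were higher and 32 lower, at 4 h 28 and 61, and at 8 h 27 and 67, with medians of 0.03, -0.36 and -0.67. At 8 h these are 27.3% higher and 67.7% lower, beside 41.3% and 48.1% of all genes, and at 4 h 28.3% and 61.6%, beside 42% and 45.9%. At 1 h they are 26.3% and 32.3%, beside 24.9% and 29.4%. At 8 h 34 were at least 2-fold lower (34.3%, against 23.5% of all genes) and 7 at least 2-fold higher (7.07%, against 16.8%). In the group of homologous recombination and cross-link repair, 21 of 24 were lower at 8 h and 2 higher, with a median of -0.99. In base excision and direct repair, 15 of 20 were lower and 5 higher, with a median of -1.07. In nucleotide excision repair, 6 of 11 were higher and 3 lower.

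ETAA1, an activator of ATR at stalled forks, was the furthest down of these at 1 and 8 h, with log2 fold changes of -0.83 ± 0.074 and -3.80 ± 0.144. It averaged 38.16 CPM in DMSO and 2.845 CPM in SK-3-91 at 8 h. BARD1, the partner of BRCA1, was at -0.79 and REV3L, the catalytic subunit of a translesion polymerase, at -0.78 at 1 h. FAAP24, which works with FANCM, was at -3.58 ± 0.191 and EXO1, an exonuclease of mismatch repair and end resection, at -3.22 ± 0.071 at 4 h. APEX2, an endonuclease, was at -3.49 and RMI2, of the complex around BLM, at -3.47 at 8 h.

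Upward at 1 h, RPA3, a subunit of the single-strand binding protein, was at 0.34, SHPRH, a ligase for PCNA, at 0.31 and NTHL1, a glycosylase, at 0.30. At 4 h SEM1, a partner of BRCA2, was at 1.21 ± 0.073 and CETN2, a partner of XPC, at 1.13 ± 0.054. RNF168, the ligase that marks chromatin at breaks, averaged 192.3 CPM in DMSO and 661.7 CPM in SK-3-91 at 8 h, a log2 fold change of 1.78 ± 0.04. NEIL1, a glycosylase at 1.391 CPM in DMSO, was at 1.95 ± 0.185 at 4 h and 2.69 ± 0.187 at 8 h, and CCNK, the cyclin of CDK12 and CDK13, at 1.96 ± 0.048 at 8 h. Both are uncertain, with 30.5% and 59.5% of exon bases opposite other genes. CDK12 itself, a kinase reported to sustain transcripts of long repair genes, was at -0.13, -0.64 and -0.78, and CDK13 at -0.15, -0.33 and 0.17 at the 3 times.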

How the data were processed

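Whole-number read counts per gene in 24 libraries were deposited by the authors, not normalized. A second deposited table, labelled as RPKM, holds log2 values of a straight line in those counts, fitted in each library (largest relative gap 3.9e-07%). Its values entered no test. A deposited gene width served for RPKM computed here. Sequencing gave single-end reads of 50 bases, per the labels. Per the submitters' processing notes, edgeR and the build hg19 were used. How reads were aligned and counted, on which strand and with which gene models, is not given in the sources used here. edgeR 4.0.16 (R 4.3.3) was run with TMM factors, filterByExpr (9822 of 9822 genes kept), 6 group means over all 24 libraries and quasi-likelihood F tests, with Benjamini-Hochberg adjustment over all 9822 genes at 0.05. Standard errors are those implied by F. The common biological coefficient of variation was 0.0422. The 3 treatment contrasts, the change between times and the drift in DMSO were tested in the same model. It was run on simulated data with 200 of 9822 genes changed in SK-3-91 at 4 h, of which 192 were called (96%). Far more genes were called in the real data (87.9% at 4 h), so the simulation cannot show how the scaling behaves there. Alternatives were RLE, upper-quartile and no factors, DESeq2 1.42.0, other filters, the libraries of each time alone, a replicate block and leaving out each library. log2 CPM values for correlations used a prior count of 2.

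The 70 genes, the lists and the tests were chosen with earlier results of these data known. Library values are given for TERF2 and for the 4 members with the largest called increases and the 4 with the largest called decreases at each time with at least 5 CPM in the higher group, and the other repair genes named are up to 3 per direction and time. Names of other members follow from the symbol match. CDK12 and CDK13 were named after their values were seen. Results of 4 members are not reported here, and these genes stay in all counts and tests. GENCODE release 29 gave shared 50-base words and opposite-strand exons, and a gene is called uncertain from 20% of either. Promoter sequences and spans are from RefSeq on GRCh38.p14, a build other than that of the counts. Pairs of replicates differed by 1.633 to 7.822 times the sampling noise (chi-square per degree of freedom), so no library was counted as a duplicate.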

Additional observations from a re-analysis of the deposited data

Results flagged for a closer look

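Of 102 groups of 4 values checked (15 genes, the total reads and the summed share of the 70 genes, each in 6 groups), 4 held 1 library far from the other 3, with a gap that takes up most of the group's range (beyond Dixon's 95% critical value), where chance gives about 1 in 20. These included FANCE at 17.45 CPM in DMSO at 1 h and XRCC1 at 36.79 CPM in SK-3-91 at 4 h. The summed share of the 70 genes stood apart in 1 DMSO library at 4 h (0.7831%) and in 1 at 8 h (0.7464%).

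The response to SK-3-91 differed between 1 and 4 h in all 15 genes with library values (80.4% of all genes), by edgeR's test of the difference itself. The change on the log2 scale was downward for FANCE (-2.474), TERF2 (-2.37), ERCC4 (-1.898), PALB2 (-1.174), XRCC1 (-1.015), FANCM (-0.924), OGG1 (-0.524), XRCC2 (-0.519) and XRCC4 (-0.386). It was upward for RAD18 (1.484), TERF2IP (0.883), PARP1 (0.676), XRCC6 (0.65), RECQL4 (0.631) and RAD54L2 (0.546). The response differed between 4 and 8 h in 10 of the 15 (68.6% of all genes). Of the 15, all but TERF2 were chosen for a large response at one of these times, so the counts support nothing. It went further down for OGG1 (-1.012), XRCC4 (-0.935), XRCC1 (-0.694), ERCC4 (-0.57) and TERF2 (-0.26), and up for RAD18 (1.356), TERF2IP (1.07), FANCM (1.056), RAD54L2 (0.898) and RECQL4 (0.492).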

How the results depend on the processing

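Small fold changes depended on the scaling factors, which at 8 h were 1.0781 to 1.0861 in DMSO and 0.7901 to 0.8137 in treated libraries with TMM. Without scaling factors, the members called higher were 14 at 4 h and 13 at 8 h (24 and 22 with TMM), beside 29.2% and 28.3% of all genes. Members with an upward change from 1 to 4 h were then 14 (23), and those with a downward change from 4 to 8 h were 38 (24). Shares of all genes for these changes without factors are not given here. With RLE factors and with DESeq2, 26 members were higher at 1 h (15), beside 33.1% of all genes with RLE factors. Without factors, signs turned at 4 h for PARP3 (-0.173), ERCC1 (-0.215), ERCC2 (-0.075), MSH3 (-0.267), RAD9A (-0.106) and UNG (-0.149), and at 8 h for PARP3 (-0.044), RAD51AP1 (-0.254), ERCC8 (-0.32), ERCC2 (-0.288), FANCC (-0.282), FANCD2 (-0.027), MRE11 (-0.126), ATM (-0.125), FANCI (-0.321), XPA (-0.366), XRCC5 (-0.317) and RECQL5 (-0.357). With upper-quartile factors, FANCI (-0.055) and XRCC5 (-0.05) turned at 8 h, and calls ended at 8 h for RAD51AP1 (0.011) and ATM (0.139). Without factors, calls also ended at 4 h for TERF1 (0.10), RAD51AP1 (0.06), RAD51B (0.15), RAD54L2 (0.05), ERCC6L2 (0.13), MRE11 (0.02) and WRN (0.04), and at 8 h for ERCC6L (0.04). With RLE factors, calls ended at 8 h for ATR (-0.11), BRIP1 (-0.04) and MSH3 (-0.05), at 4 h for FANCL (-0.21) and at 1 h for FANCC (-0.13). Members not called with TMM scaling that passed the test in the same direction numbered 11, 3 and 5 at 1, 4 and 8 h with RLE factors and with DESeq2, 3, 4 and 4 with upper-quartile factors, 1, 6 and 4 without factors, and 8, 2 and 1 with the libraries of that time alone. Leaving out each library in turn gave 13 to 15 members higher and 11 to 12 lower at 1 h, 24 to 26 and 34 to 36 at 4 h, and 21 to 24 and 36 to 38 at 8 h. The change in response gave 21 to 23 and 35 to 37 from 1 to 4 h and 15 to 18 and 23 to 26 from 4 to 8 h, and the drift in DMSO 13 to 16 and 15 to 18. Treated totals were 95.9% to 96.6%, 74.4% to 75% and 56.7% to 61.6% of DMSO, and no permutation test was run on these. Same-numbered libraries did not deviate together (r from -0.119 to 0.022 over 12 pairs), and 0 of 12 correlated best with their own number. With the replicate block, 1 call at 1 h was lost, and the counts of members were 15 higher and 12 lower at 1 h, 24 and 35 at 4 h and 22 and 38 at 8 h. Requiring a mean count of at least 100 left 66 of the 70 genes. The depth limits calls to differences of a few standard errors, whose median was 0.054 to 0.064.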
